A study of Caenorhabditis elegans with 30 samples.

Results

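The comparison set young adult Caenorhabditis elegans kept for 24h on plates with 0.033% dimethyl sulfoxide (DMSO) against animals kept for 24h on plates without it (Unexposed). It used 6 of the 30 RNA-seq libraries of a study of nucleoside reverse transcriptase inhibitors, 3 DMSO and 3 Unexposed, chosen by the exposure and the exposure time in their labels and described across all genes. DMSO was the solvent of the antiretroviral analogues AZT, d4T and FLT, which were given at 100 µM to 3 further groups, and each of the 5 exposures was also sampled at 72h. All animals were synchronized as L1 larvae, grown to L4 on agar plates with a lawn of Escherichia coli OP50, and moved as L4 larvae to the exposure plates. Bacteria and eggs were meshed away before freezing, and RNA came from whole worms of no stated strain in the labels, the study's methods naming wild-type N2. The comparison asks which transcripts differed with the vehicle alone at the first of the 2 times.

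DMSO is a small polar sulfoxide that crosses membranes and is the usual vehicle for compounds that dissolve poorly in water. Between L4 and the first day of adulthood a hermaphrodite completes its last moult, builds the adult cuticle, finishes spermatogenesis, starts oogenesis and begins to make yolk in the intestine. The intestine is also the main site of lipid synthesis and storage, digestion, detoxification and defence against bacteria. In whole-worm RNA, fewer cells of a type and less RNA per cell cannot be told apart, and the same holds for a shift in developmental timing within the 24h.

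Reads counted on genes numbered 19634669, 26781467 and 25272976 in the 3 DMSO libraries, against 23322602, 25602065 and 24374584 in the 3 Unexposed libraries, and 11326667 to 30618790 over all 30 libraries. Reads left without a gene made up 17.7% to 19% of the DMSO libraries and 13.9% to 15% of the Unexposed libraries. By the names of the count tables, the DMSO libraries of both times shared 1 sequencing lane and the Unexposed libraries of both times another, so lane and exposure cannot be told apart. Levels are given as CPM, a gene's reads scaled to a common library total. Correlations of log2 CPM between libraries of a group were 0.964 to 0.987 for DMSO, where replicate 1 was the library farthest from the others, and 0.979 to 0.982 for Unexposed. Ribosomal RNA reads stood higher in each DMSO library, although neither of the 2 listed genes that passed the filter was called. The list held 20 ribosomal RNA genes, 16 of them with no read in any of the 6 libraries. The summed level of the 20 was 25600, 18000 and 10700 CPM in the DMSO libraries, against 3870, 5370 and 5570 CPM in the Unexposed libraries. The part of this sum in the results below was not tested.

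Of 46726 annotated genes, 16048 had enough reads to be tested, and 2017 of them (12.6%) differed between DMSO and Unexposed at 24h by edgeR's quasi-likelihood test at a Benjamini-Hochberg adjusted p under 0.01. Here rose and fell refer to genes past that threshold. Of all genes tested, 1446 (9.01%) rose and 571 (3.56%) fell, which are the shares against which the counts in each gene group below should be read. Higher genes made up 71.7% of the calls in the fit of all 30 libraries. A fit of the 6 compared libraries alone took the filter, the scaling and the spread from those libraries. It gave 4241 calls, and the split turned to 46.6% higher, with 1977 higher and 2264 lower. The median log2 fold change over all genes tested was 0.04.

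Among the called genes 992 were over 2-fold higher and 290 over 2-fold lower, and 365 were over 4-fold higher and 84 over 4-fold lower. A test for a change beyond 1.5-fold called 427 genes, 351 higher and 76 lower. The called genes were chosen by the same 6 libraries, so their folds and medians are no separate support for a difference. The median level of the 1446 genes that rose was 35.2, 29.5 and 23.3 CPM in DMSO libraries 1, 2 and 3, against 12.2, 10.6 and 11.5 CPM in the Unexposed libraries. For the 571 genes that fell the medians were 19.2, 21.5 and 24.2 CPM in the DMSO libraries, against 42.2, 47.3 and 44.1 CPM in the Unexposed libraries. DMSO replicate 1 thus lay farthest from Unexposed in both directions and DMSO replicate 3 nearest. Leaving out 1 library lowered the calls to 1035 without DMSO replicate 1, 1133 without DMSO replicate 2, and 1239, 944 and 1092 without Unexposed replicates 1, 2 and 3, while there were 1910 without DMSO replicate 3.

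**Figure D1:**
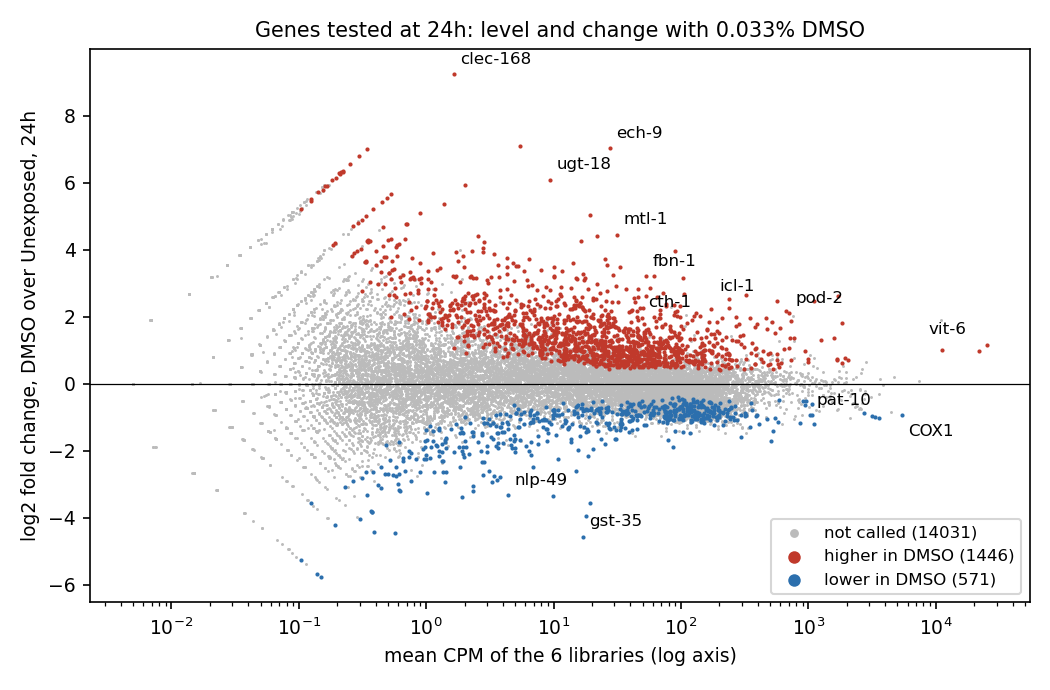
Log2 fold change of DMSO over Unexposed at 24h (vertical axis) against the mean level over the 6 libraries (horizontal axis, log10 scale of CPM) for the genes tested. Colours mark the 1446 genes that rose and the 571 that fell at an adjusted p under 0.01, and labels mark genes named in the text.

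The X chromosome held more of the higher genes than any autosome. On X 334 of 2303 genes tested rose (14.5%) with a median log2 fold change of 0.27, whereas the share that rose was 7.19% to 9.04% on the autosomes. The share that fell was 3.6% on X and 2.95% to 3.87% on the autosomes. By level, 14.5% of genes between 10 and 100 CPM rose and 2.41% of genes under 1 CPM did, where counts give less precision. Counting with strand was not stated for these files. How many of all genes tested overlap a gene on the other strand was not counted. Of the called genes 635 (31.5%) do, so for those the source strand of the reads is unknown. Among genes named here this holds for vit-2, vit-4, pod-2, mdt-15, elo-4, idh-1, ctl-2, cysl-2, cysl-3, ugt-37, pgp-1, crt-1, fbn-1, nhr-25, hmit-1.2, flp-8, tni-4, tnc-2, skn-1 and daf-16, while mlt-10, mlt-11, pdi-2, ech-9, gpd-2, ND5 and gst-4 overlap a gene on their own strand.

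Yolk protein genes were the most abundant transcripts that rose. Vitellogenins are yolk precursors made in the adult intestine and taken up by oocytes, and 4 of 6 rose with none lower, at a median log2 fold change of 0.87. Their summed level was 97800, 96500 and 74900 CPM in the DMSO libraries, against 47800, 49900 and 39700 CPM in the Unexposed libraries. These levels are in CPM, scaled by reads and not by length. vit-6 (WBGene00006930, chromosome IV, 8261157 to 8266459 in WBcel235) had 38200, 38600 and 27900 CPM with DMSO, against 16400, 16900 and 13400 CPM in Unexposed animals. The groups did not overlap, and its log2 fold change was 1.16 ± 0.25 (SE, n = 3 each, adjusted p = 0.0017). vit-2 (33000, 31100 and 23200 CPM with DMSO, against 15500, 16300 and 12900 CPM in Unexposed), vit-5 and vit-4 rose by log2 0.97, 1.00 and 0.78. The yolk calls were close to the threshold. They fell to 0 of 6 without Unexposed replicate 3, 1 without DMSO replicate 2, and 2 without Unexposed replicates 1 or 2 or DMSO replicate 1, with the log2 fold change of vit-6 between 1.06 and 1.3. The vitellogenin genes are near-identical in part, so the division of reads among them is uncertain.

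Other intestinal genes rose with them. elt-2, the GATA factor that maintains intestinal identity, had 27.3, 25.4 and 26 CPM in the DMSO libraries, against 9.36, 11.3 and 11.6 CPM in the Unexposed libraries. All 3 DMSO libraries lay above the Unexposed ones, with a log2 fold change of 1.28 ± 0.29 (SE, adjusted p = 0.0026), although the call was lost without Unexposed replicate 1 or 2. Of the 5 intestinal markers tested 3 rose, and their summed level was 538 to 593 CPM with DMSO, against 457 to 500 CPM in Unexposed. Intestinal proteases rose in 10 of 22 and fell in 1, with a median of 0.75. Whether a larger contribution of intestinal RNA to the whole-worm sample accompanied these rises was not tested.

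Some groups of defence and digestion genes followed the same direction, and others were mixed. Lipases rose in 3 of 23 and fell in 1 (median -0.09), with 9 of the 23 positive. Genes with a CUB domain or of the infection response rose in 5 of 32 and fell in 4 (median 0.29). Lysozymes and saposin-like proteins, which lyse bacteria in the gut lumen, rose in 10 of 34 with none lower (median 0.74), and C-type lectins, a large secreted family of immune effectors, rose in 29 of 144 and fell in 4 (median 0.85). lys-2 had 437, 431 and 406 CPM with DMSO, against 147, 177 and 152 CPM in Unexposed, a log2 fold change of 1.42 ± 0.26 (SE, adjusted p = 0.00032). lipl-5, a lysosomal lipase of the intestine, had 622, 570 and 475 CPM in the DMSO libraries, against 91.5, 91.1 and 85.1 CPM in the Unexposed libraries. The log2 fold change of lipl-5 was 2.64 ± 0.36 (SE, adjusted p = 3e-05), with a small spread within either group. The lectin neighbours clec-169 and clec-168 on chromosome IV were nearly silent in Unexposed. clec-169 had 49.9, 40 and 22.7 CPM with DMSO, against 1.23, 0.519 and 1.65 CPM in Unexposed animals. clec-168 had 4, 3.72 and 2.23 CPM with DMSO and no read in any Unexposed library, at least 73.3-fold higher when set against a floor of 3 counts over the Unexposed group. Leaving out a library gave 4 to 11 higher lysozymes and saposins (4 without Unexposed replicate 1 or 3) and 16 to 23 higher lectins (16 without Unexposed replicate 2), while the lectins that fell numbered 2 without Unexposed replicate 2 or DMSO replicate 2.

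**Figure D2:**
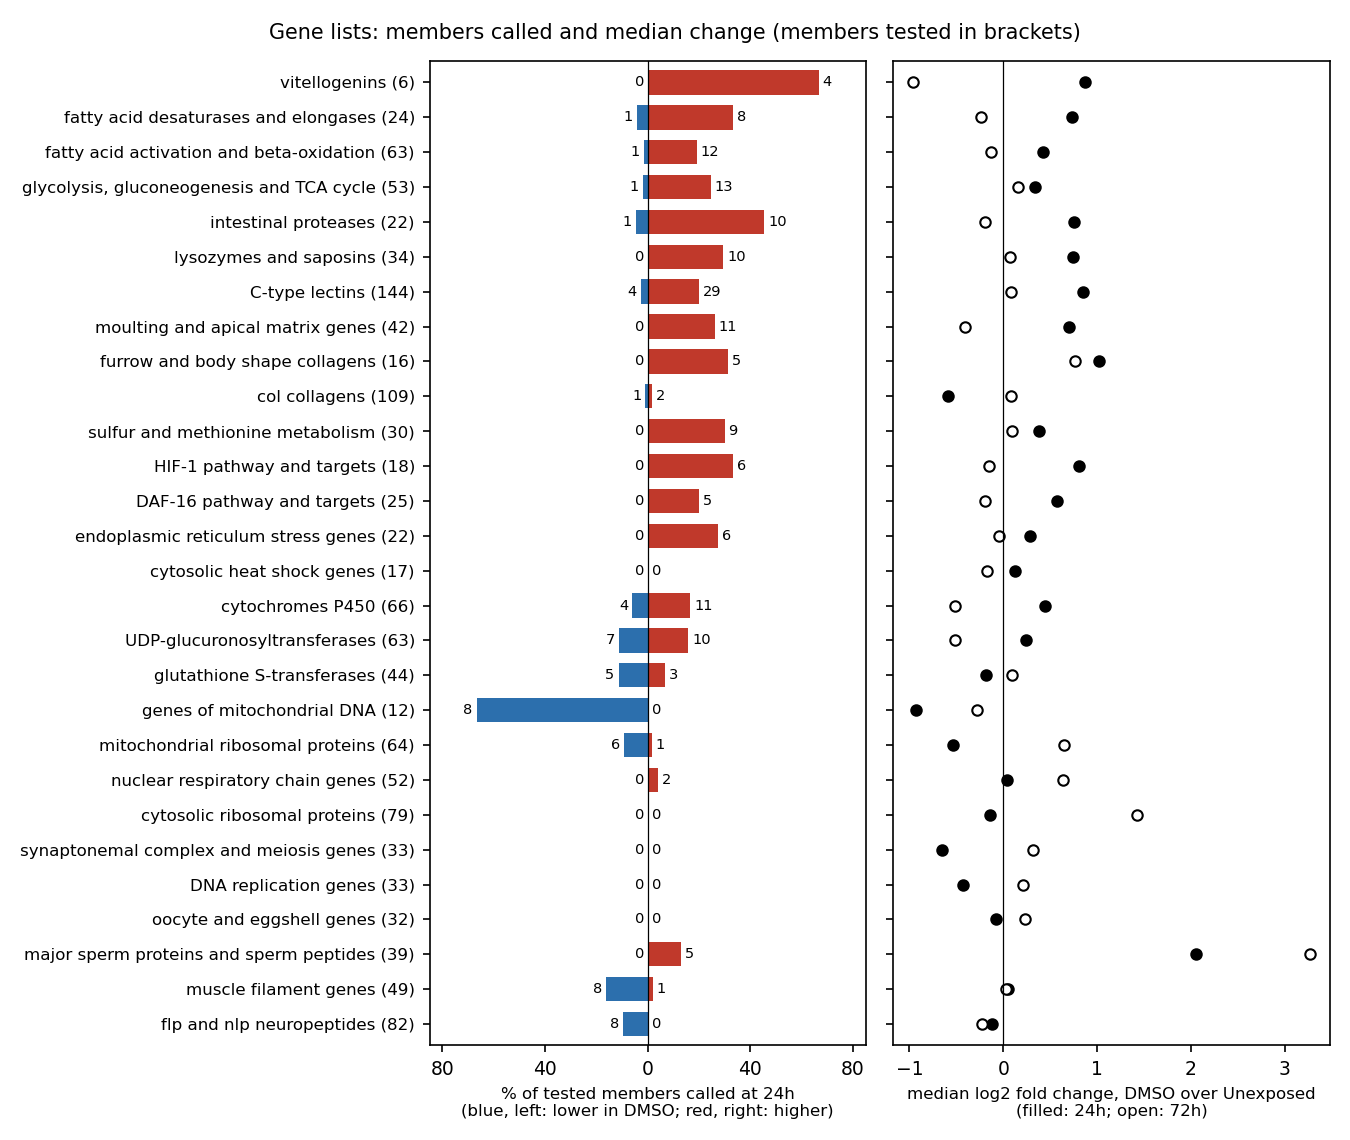
Left, share of the tested members of each gene group that fell (blue bars, to the left of 0) and rose (red bars, to the right of 0) with DMSO at 24h, in percent, with the number of genes at each bar end and the members tested in brackets. Right, the median log2 fold change of DMSO over Unexposed of each group at 24h (filled) and 72h (open); vitellogenins, with 4 of 6 higher, and genes of mitochondrial DNA, with 8 of 12 lower, have the longest bars.

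Fatty acid synthesis genes also rose. pod-2 (WBGene00004076, chromosome II, 1136785 to 1152705) encodes acetyl-CoA carboxylase, which makes the malonyl-CoA that fatty acid synthase extends. It had 1600, 1230 and 606 CPM in the DMSO libraries, against 272, 278 and 252 CPM in the Unexposed libraries. Every DMSO library was above every Unexposed one, the lowest being DMSO replicate 3, and the log2 fold change was 2.1 ± 0.34 (SE, adjusted p = 0.00012). fasn-1, the fatty acid synthase, had 406, 312 and 269 CPM with DMSO, against a mean of 124 ± 6.11 CPM in Unexposed (SD, n = 3, log2 1.40 ± 0.23, SE, adjusted p = 0.00014). mdt-15, a Mediator subunit that coactivates fatty acid desaturase genes, had 185, 206 and 178 CPM with DMSO, against 121, 107 and 114 CPM in Unexposed (log2 0.74 ± 0.12, SE, adjusted p = 0.00013). Of 24 desaturases and elongases 8 rose and 1, the elongase elo-4, fell by 0.90 on the log2 scale. The rises numbered 5 without Unexposed replicate 3, and elo-4 was not called without Unexposed replicates 1 or 2 or DMSO replicates 2 or 3.

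Genes that break fatty acids down also rose. Of 63 genes of fatty acid activation and beta-oxidation 12 rose and 1 fell, with a median of 0.42. ech-9 (WBGene00001158, chromosome IV, 10233310 to 10235329), an enoyl-CoA hydratase family gene, had 70.5, 47.3 and 47.3 CPM in the DMSO libraries, against 0.136, 0.0433 and 1.07 CPM in the Unexposed libraries. It was close to its detection limit in Unexposed, which makes the size of the ratio imprecise, and its log2 fold change was 7.03 ± 1.08 (SE, adjusted p = 7.1e-05). hacd-1, a hydroxyacyl-CoA dehydrogenase, had 578, 393 and 222 CPM with DMSO, against 83.7, 76.2 and 87.1 CPM in Unexposed, and acs-19, an acyl-CoA synthetase family gene, rose by log2 1.68. The carnitine palmitoyltransferase family gene cpt-5 fell by 1.12 on the log2 scale, but was called only without Unexposed replicate 1 or DMSO replicate 3 among the fits that left out a library. The rises of the group numbered 7 without Unexposed replicate 2 or DMSO replicate 1. Both the synthetic and the degradative side of lipid metabolism therefore held genes that rose, and DMSO replicate 1 was the highest library for pod-2, fasn-1, ech-9 and hacd-1.

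The glyoxylate cycle and central carbon metabolism showed the same direction. icl-1 (WBGene00001564, chromosome V, 724332 to 728004) encodes the bifunctional isocitrate lyase and malate synthase with which worms make sugar from fat. It had 1270, 1130 and 499 CPM in the DMSO libraries, against 208, 157 and 160 CPM in the Unexposed libraries. The groups stood well apart, at a log2 fold change of 2.46 ± 0.28 (SE, adjusted p = 3.2e-06). Of 53 genes of glycolysis, gluconeogenesis and the TCA cycle 13 rose and 1 fell, among them the isocitrate dehydrogenase idh-1 (log2 0.90) and the glyceraldehyde-3-phosphate dehydrogenase gpd-2 (log2 0.97). The peroxisomal catalase ctl-2 had 149, 129 and 94.1 CPM with DMSO, against 41.9, 42 and 40.4 CPM in Unexposed, a log2 fold change of 1.58 ± 0.24 (SE, adjusted p = 6e-05). Its group, superoxide, peroxide and thioredoxin genes, did not share this rise. Of 28 tested 1, ctl-2, rose and 2 fell (median -0.16), with 5 higher and 10 lower with unadjusted p below 0.05.

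Several sulfur amino acid and hydrogen sulfide genes rose. Of 30 genes of sulfur and methionine metabolism 9 rose and none fell by edgeR's quasi-likelihood test (median 0.38), with 20 of the 30 positive and 5 lower with unadjusted p below 0.05. DESeq2 also called none lower, whereas the fit of the 6 libraries alone called 10 higher and 5 lower. cth-1 (WBGene00009048, chromosome V, 16100680 to 16102750), a cystathionine gamma-lyase that makes cysteine from cystathionine, had 84.1, 89.7 and 63.5 CPM in the DMSO libraries, against 19.4, 19.5 and 21.8 CPM in the Unexposed libraries. Every DMSO library lay above every Unexposed one, and the log2 fold change was 1.97 ± 0.28 (SE, adjusted p = 3.3e-05). cysl-2, a cysteine synthase family gene that detoxifies cyanide and is a HIF-1 target, had 111, 135 and 78 CPM with DMSO, against 26.7, 26.3 and 29.9 CPM in Unexposed (log2 1.96 ± 0.36, SE, adjusted p = 0.00032). The related cysl-3 rose by log2 1.67. sqrd-1, the sulfide:quinone oxidoreductase of mitochondria, had 8.79, 14.9 and 13 CPM with DMSO, against 4.54, 5.19 and 4.96 CPM in Unexposed (log2 1.32 ± 0.21, SE, adjusted p = 8.1e-05). The count for this group was 6 to 8 with any 1 library left out.

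HIF-1 is the hypoxia-inducible factor, a transcription factor that is degraded when oxygen is plentiful. hif-1 itself (WBGene00001851, chromosome V, 20780407 to 20785260) had 274, 223 and 181 CPM in the DMSO libraries, against 118, 121 and 116 CPM in the Unexposed libraries. Its log2 fold change was 0.93 ± 0.20 (SE, adjusted p = 0.0015), with no overlap between groups. Of 18 genes of its pathway and known targets 6 rose and none fell, with a median of 0.81. Of 25 genes of the DAF-16 pathway, the insulin-regulated FOXO route, 5 rose (3 without Unexposed replicate 2 or DMSO replicate 1) and none fell by edgeR's test, whereas DESeq2 called 2 lower. daf-16 itself had 122, 138 and 121 CPM with DMSO, against 101 to 121 CPM in Unexposed, and did not pass the test (log2 0.17, adjusted p = 0.26).

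**Figure D3:**
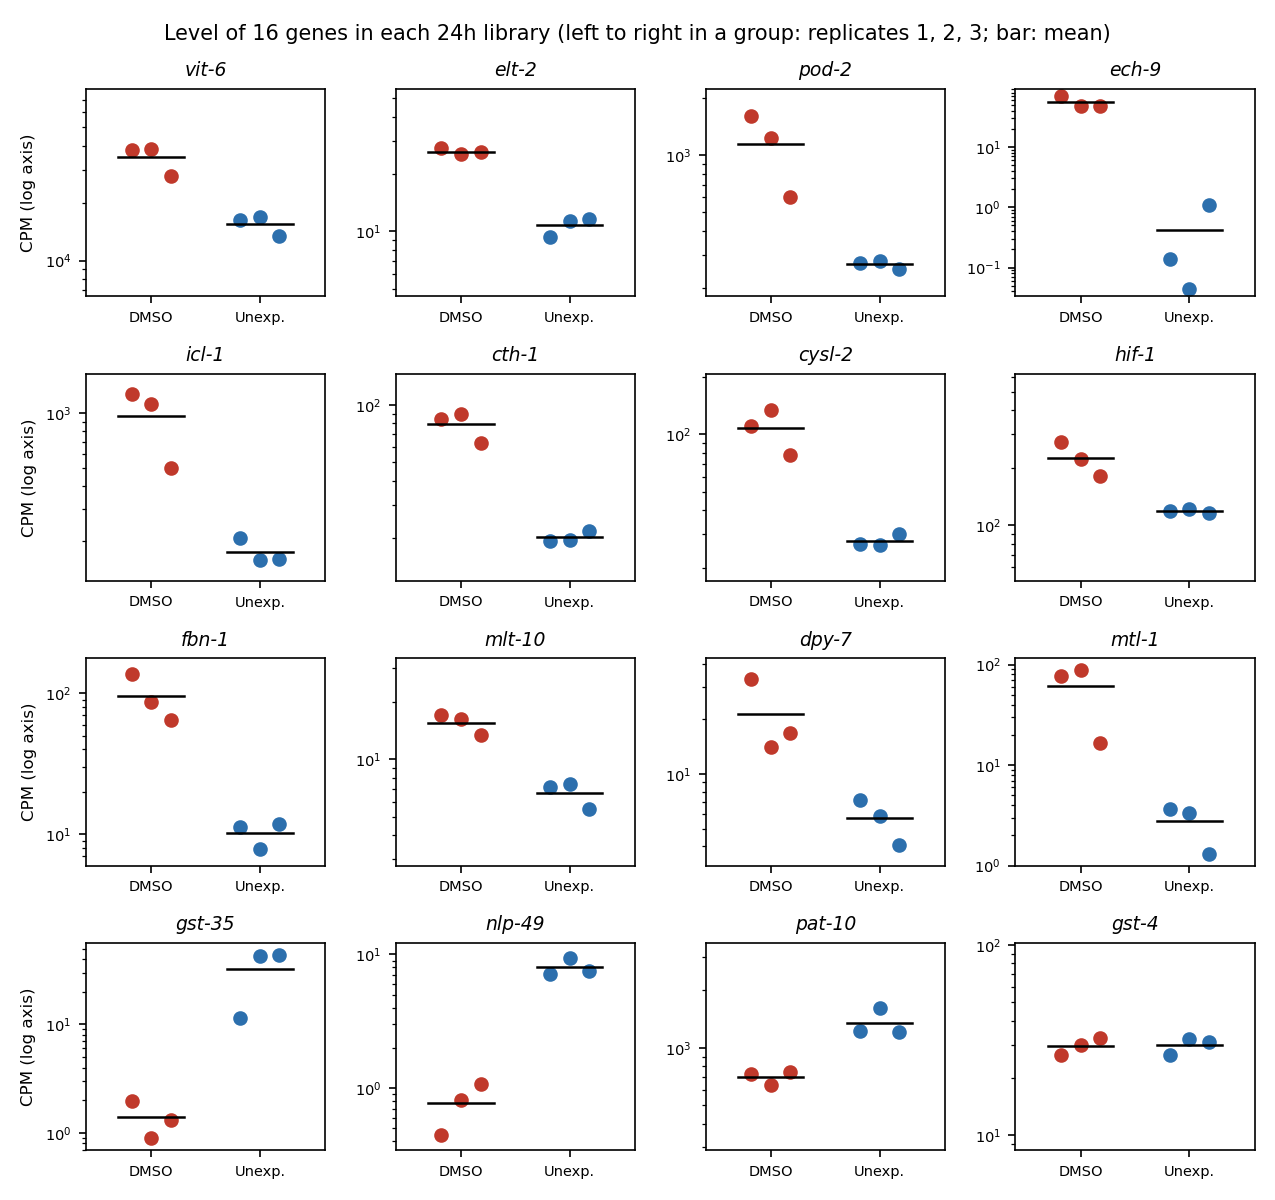
Level of 16 named genes in each library (vertical axis, CPM on a log10 scale), with DMSO libraries (red) left of Unexposed libraries (blue) in each panel, replicates 1 to 3 from left to right in a group, and bars at the group means. For ech-9 the DMSO libraries sit at 47.3 to 70.5 CPM, against 0.0433 to 1.07 CPM in Unexposed, and for gst-4 the groups overlap.

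Detoxification genes moved in both directions. Cytochromes P450, which oxidize foreign and endogenous lipophilic compounds, rose in 11 of 66 and fell in 4 (median 0.45). UDP-glucuronosyltransferases, which conjugate sugars to such compounds, rose in 10 of 63 and fell in 7, and ABC transporters, which export them, rose in 9 of 45 and fell in 2. cyp-13A5 had 55.6, 62.8 and 25.9 CPM in the DMSO libraries, against 5.36, 2.64 and 4.47 CPM in the Unexposed libraries (log2 3.53 ± 0.41, SE, adjusted p = 3.7e-06). Its neighbour cyp-13A7 rose by log2 5.93, with 5.95, 4.54 and 1.36 CPM with DMSO, against at most 0.0894 CPM in Unexposed, and reads may be shared within this cluster. The P-glycoprotein pgp-1 had 109, 133 and 60 CPM with DMSO, against 12.6, 12.9 and 15.7 CPM in Unexposed, a log2 fold change of 2.87 ± 0.25 (SE, adjusted p = 2.1e-07). ugt-18 had 29.9, 15.3 and 10.3 CPM with DMSO, against 0.182, 0.476 and 0.134 CPM in Unexposed, whereas ugt-37 fell by 3.38 on the log2 scale. The higher P450 genes numbered 5 without Unexposed replicate 3 and 14 without DMSO replicate 3, and the lower ones 2 without DMSO replicate 2. In the fit of the 6 libraries alone 8 P450 genes were higher and 7 lower. The higher ABC transporters numbered 4 without Unexposed replicate 1 or DMSO replicate 1, none was lower without Unexposed replicate 2 or DMSO replicate 1 and 1 without Unexposed replicates 1 or 3 or DMSO replicate 2, and the lower UDP-glucuronosyltransferases numbered 3 without DMSO replicate 1.

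Glutathione S-transferases, which join glutathione to electrophiles, included several of the larger falls. Of 44 tested 5 fell and 3 rose, with a median of -0.18, and 2 fell without Unexposed replicate 2 or DMSO replicate 1. gst-35 (WBGene00001783, chromosome II, 15183807 to 15185389) had 1.95, 0.9 and 1.32 CPM in the DMSO libraries, against 11.4, 42.6 and 43.4 CPM in the Unexposed libraries. gst-21 had 3.39, 1.96 and 1.2 CPM with DMSO, against 6.77, 39.8 and 54.5 CPM in Unexposed. For both, Unexposed replicate 1 stood below the other 2 Unexposed libraries and still above every DMSO library, with log2 fold changes of -4.56 ± 0.65 and -3.96 ± 0.61 (SE, adjusted p = 3.5e-05 and 7e-05). gst-41 also fell (log2 -3.21, not called without Unexposed replicate 2 or DMSO replicate 1), and gst-19 rose, with 0.779 to 2.02 CPM with DMSO against at most 0.0894 CPM in Unexposed, a ratio of summed counts of 31.4 and a 95% counting interval of 10.4 to 155.

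gst-4, a glutathione S-transferase used as a reporter of oxidative stress, was not called at 24h. It had 26.3, 29.7 and 32.6 CPM in the DMSO libraries, against 26.4, 32.1 and 30.9 CPM in the Unexposed libraries. The log2 fold change was -0.01 with a 95% interval of -0.39 to 0.36 (adjusted p = 0.97), so a change of 1.5-fold in either direction lies outside the interval. skn-1, the transcription factor that controls gst-4, did not pass the test (log2 0.17, adjusted p = 0.49). The p53 homologue cep-1 had 66.4, 89.4 and 112 CPM with DMSO, against 189, 187 and 190 CPM in Unexposed. The groups did not overlap, and the log2 fold change of -1.08 ± 0.33 (SE) missed the threshold at an adjusted p of 0.017. clk-1, needed for ubiquinone synthesis, and isp-1, the Rieske iron-sulfur protein of complex III, had log2 fold changes of -0.52 (adjusted p = 0.063) and 0.20 (adjusted p = 0.18).

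Among other stress responses, none of 17 cytosolic heat shock genes passed edgeR's quasi-likelihood test (median 0.13), with 3 higher and 2 lower with unadjusted p below 0.05 and 1 called higher by DESeq2. The fit of the 6 libraries alone called 2 of these genes higher and 2 lower. Of 22 endoplasmic reticulum stress genes 6 rose (3 without Unexposed replicate 2) and none fell by edgeR or DESeq2, while the fit of the 6 libraries alone called 2 lower. Those that rose included the protein disulfide isomerase pdi-2, which had 1050, 853 and 703 CPM with DMSO, against 432, 417 and 424 CPM in Unexposed (log2 1.03 ± 0.22, SE, adjusted p = 0.0013), the BiP homologue hsp-3 (log2 0.70) and the calreticulin crt-1 (log2 0.64). The metallothionein mtl-1, a metal-binding protein and DAF-16 target, had 76.4, 88.9 and 16.4 CPM in the DMSO libraries, against 3.68, 3.33 and 1.3 CPM in the Unexposed libraries. DMSO replicate 3 was far below the other DMSO libraries and still above Unexposed, at a log2 fold change of 4.45 ± 0.74 (SE, adjusted p = 0.00014). tps-1, which makes trehalose, an osmolyte, had 60.4, 45.1 and 34.3 CPM with DMSO, against 21.3, 17.1 and 17.4 CPM in Unexposed (log2 1.32 ± 0.24, SE, adjusted p = 0.00031). In the osmotic stress group 5 of 19 genes rose and 1, the inositol transporter family gene hmit-1.2, fell (not called without Unexposed replicates 2 or 3 or DMSO replicates 1 or 3), but only 1 rose without Unexposed replicate 3 and 2 without Unexposed replicate 1 or 2. Epidermal antimicrobial peptides rose in 7 of 39 (4 without Unexposed replicate 1 or 3) and fell in 3 (1 without Unexposed replicate 2). Those that rose included cnc-4 (49.3, 33.9 and 14.4 CPM with DMSO, against 4.68, 5.58 and 3.49 CPM in Unexposed) and nlp-29 (log2 1.44, not called without Unexposed replicate 1 or 3).

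Several genes of the moult rose with DMSO. During a moult the epidermis secretes a temporary apical matrix and then a new cuticle, under control of the nuclear receptor nhr-25. Of 42 moulting and apical matrix genes 11 rose and none fell by edgeR's quasi-likelihood test, with a median of 0.70. Of the 42, 2 were lower with unadjusted p below 0.05. DESeq2, the fit of the 6 libraries alone and the fit without DMSO replicate 3 each called 1 lower. fbn-1 (WBGene00022816, chromosome III, 7625386 to 7641078), a fibrillin-like matrix protein, had 136, 87.2 and 64.3 CPM in the DMSO libraries, against 11.2, 7.83 and 11.9 CPM in the Unexposed libraries. The groups were far apart in relation to the spread within either, with a log2 fold change of 3.22 ± 0.49 (SE, adjusted p = 6.2e-05). noah-1, a matrix protein of the same layer, had 206, 126 and 113 CPM with DMSO, against 41.4, 24.4 and 21.6 CPM in Unexposed (log2 2.35). mlt-11, a protease inhibitor family gene required for moulting, had 91.4, 55.4 and 46.6 CPM with DMSO, against 15.7, 5.88 and 5.77 CPM in Unexposed (log2 2.82). mlt-10 (log2 1.22) and nhr-25 itself (38.4, 22.6 and 20 CPM with DMSO, against 6, 4.11 and 5.27 CPM in Unexposed) also rose. Of 6 L4 moult markers 3 rose, and 1 was lower with unadjusted p below 0.05. The summed level of the 6 was 510, 353 and 294 CPM in the DMSO libraries, against 132 to 160 CPM in the Unexposed libraries. DMSO replicate 1 was again the highest, and the moulting count was 8 to 12 with any 1 library left out.

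Cuticle collagens did not follow as a family. Of 109 col collagens 2 rose and 1 fell (median -0.59), with 80 below 0. Of 16 furrow and body shape collagens 5 rose, including dpy-7 with 33.3, 14.1 and 16.8 CPM with DMSO, against 7.18, 5.88 and 4.07 CPM in Unexposed (log2 1.90 ± 0.52, SE, adjusted p = 0.0096), dpy-3 (log2 2.38) and dpy-14 (log2 1.92). That group count rested on single libraries, since it fell to 0 without Unexposed replicate 2, Unexposed replicate 3 or DMSO replicate 1, to 2 without DMSO replicate 2 and to 3 without Unexposed replicate 1 or DMSO replicate 3. Epidermal markers summed to 737 to 883 CPM with DMSO, against 965 to 1110 CPM in Unexposed, while 3 of the 6 rose.

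Most transcripts of mitochondrial DNA fell. The worm mitochondrial genome encodes 12 subunits of the respiratory chain and ATP synthase, transcribed from one strand, and 8 of the 12 fell with none higher, at a median log2 fold change of -0.93. COX1 (WBGene00010964, mitochondrial genome, 7827 to 9428), a catalytic subunit of cytochrome c oxidase, had 4370, 3610 and 3210 CPM in the DMSO libraries, against 7070, 6640 and 7520 CPM in the Unexposed libraries. The groups were well apart, at a log2 fold change of -0.92 ± 0.14 (SE, adjusted p = 6e-05). CYTB, the cytochrome b of complex III, had 2240, 2450 and 2330 CPM with DMSO, against 4810, 4530 and 5060 CPM in Unexposed (log2 -1.04 ± 0.15, SE, adjusted p = 3.5e-05). COX3, ND4 and ND5 fell by 0.99, 1.19 and 1.18 on the log2 scale, and the remaining genes that fell were COX2, ATP6 and ND1. ND6 (log2 -0.86, adjusted p = 0.019), ND2, ND3 and ND4L did not pass the test, the last 3 with overlapping groups. Whether there were fewer copies of mitochondrial DNA was not measured by these libraries. With any 1 library left out 8 or 9 fell, and 2 did when the test asked for a change beyond 1.5-fold.

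**Figure D4:**
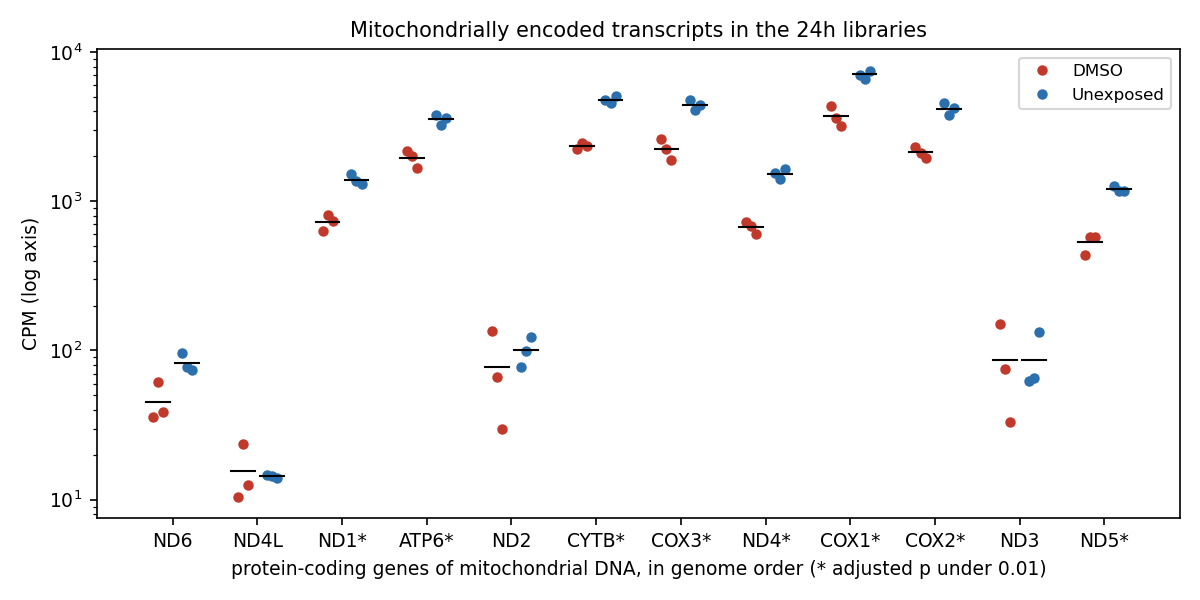
Level of the 12 protein-coding genes of mitochondrial DNA in each library (vertical axis, CPM on a log10 scale), DMSO (red) left of Unexposed (blue) for each gene, with bars at the group means and an asterisk on the 8 genes that fell. For COX1 the DMSO libraries sit at 3210 to 4370 CPM, against 6640 to 7520 CPM in Unexposed, and ND2, ND3 and ND4L overlap between the groups.

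Nuclear genes for the same organelle gave fewer calls. Of 52 nuclear genes of the respiratory chain 2 rose and none fell by edgeR's quasi-likelihood test (median 0.04), with 13 higher and 14 lower with unadjusted p below 0.05. DESeq2 called 5 of them higher and 6 lower, and the fit of the 6 libraries alone 7 higher and 15 lower. In the fits that left out a library 2 rose without DMSO replicate 3 and 1 without any other. Of 64 mitochondrial ribosomal protein genes 6 fell and 1 rose, with a median of -0.54. In 52 of these 64 (81.2%) all 3 DMSO libraries lay below all 3 Unexposed libraries, against 25.2% of all genes tested, and 24.8% of all genes had the DMSO libraries above. The count that fell was 1 or 2 with any 1 library left out and 42 in the fit of the 6 libraries alone. Cytosolic ribosomal protein genes gave no call among 79 by edgeR's quasi-likelihood test (median -0.14, with all DMSO libraries below in 41.8%), although 18 were lower and 4 higher with unadjusted p below 0.05. Scaling by library totals called 1 of them lower, DESeq2 called 3 lower, and the fit of the 6 libraries alone called 16 lower and 2 higher.

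Meiosis genes lay lower with DMSO as a group without passing the test singly. Of 33 genes of the synaptonemal complex and meiosis, which pair and recombine chromosomes in the gonad, all 33 had a negative log2 fold change, between -1.31 and -0.03 with a median of -0.65, against 7642 negative of the 16048 genes tested. In 25 (75.8%) the DMSO libraries lay below the Unexposed ones, against 25.2% of all genes. None passed the adjusted threshold by edgeR's quasi-likelihood test, although 21 lay lower with unadjusted p below 0.05 (3110 of the 16048 over all genes), DESeq2 called 2 lower and the fit of the 6 libraries alone called 22. Of 33 DNA replication genes 26 were negative (median -0.43). None of these was called by edgeR's test or by DESeq2, 11 were lower with unadjusted p below 0.05, and the fit of the 6 libraries alone called 16 lower and 1 higher. The 32 oocyte and eggshell genes were near 0 (median -0.08), with no call by edgeR, DESeq2 or the 6 libraries alone and none with unadjusted p below 0.05. The 5 germline markers tested had a median of -0.05 and no call by edgeR or DESeq2, 1 being lower with unadjusted p below 0.05 and in the fit of the 6 libraries alone, and they summed to 1440 to 1780 CPM with DMSO, against 1710 to 1900 CPM in Unexposed. Major sperm proteins and sperm peptides, made only during spermatogenesis, rose in 5 of 39. None rose without Unexposed replicate 1, 1 without Unexposed replicates 2 or 3 or DMSO replicate 3, and 2 without DMSO replicate 2. The summed level of all 53 listed, tested or not, was 31.1 to 58.3 CPM with DMSO, against 9.64 to 19.2 CPM in Unexposed. These genes are near-identical copies, so single members are uncertain. In a separate list of sperm function genes 1 of 28 tested rose and 1 fell (median 0.53, 15 positive). The 39 genes of that list summed to 546 to 650 CPM with DMSO, against 766 to 852 CPM in Unexposed. Early embryo markers were at most 11 CPM in sum in either group.

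Nerve and muscle transcripts held several clear falls. Of 82 genes for FMRFamide-like and other neuropeptides 8 fell and none rose by edgeR's quasi-likelihood test, while DESeq2 called 1 higher and the fit of the 6 libraries alone 2. The 6 pan-neuronal markers gave no call by edgeR or DESeq2 (2 higher with unadjusted p below 0.05, 1 higher in the fit of the 6 libraries alone) and summed to 227 to 271 CPM with DMSO, against 207 to 209 CPM in Unexposed. nlp-49 had 0.445, 0.818 and 1.07 CPM in the DMSO libraries, against 7.18, 9.39 and 7.55 CPM in the Unexposed libraries. It had the smallest adjusted p of the group, with a log2 fold change of -3.33 ± 0.31 (SE, adjusted p = 5e-07). pdf-2, a ligand of the pigment-dispersing factor receptor that acts on locomotion, had 0.667, 0.205 and 0.495 CPM with DMSO, against 3.64, 4.89 and 3.98 CPM in Unexposed (log2 -3.21 ± 0.42, SE, adjusted p = 1.8e-05). flp-8 fell by 2.86 on the log2 scale.

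Of 49 muscle filament genes 8 fell and 1 rose, with a median of 0.05. Those that fell included pat-10, the body wall troponin C that binds calcium, with 733, 637 and 750 CPM in the DMSO libraries, against 1230, 1620 and 1210 CPM in the Unexposed libraries. No DMSO library reached the Unexposed range, and the log2 fold change was -0.94 ± 0.13 (SE, adjusted p = 3.3e-05). The troponin genes tni-4 and tnc-2 fell by 1.31 and 1.76 on the log2 scale. Of 5 body wall muscle markers 1, hlh-1, rose (not called without Unexposed replicates 1 or 2) and none fell, and they summed to 434 to 500 CPM with DMSO, against 348 to 484 CPM in Unexposed. Of 4 pharynx markers, the myosin myo-1 fell (log2 -1.19, adjusted p = 0.0073) and the transcription factor pha-4 rose (log2 2.04), while the myosin myo-2 (log2 -0.72, adjusted p = 0.096) and the troponin T tnt-4 (log2 -1.06, adjusted p = 0.056) did not pass. The pharynx markers summed to 42.9 to 54.1 CPM with DMSO, against 20.1 to 32.2 CPM in Unexposed. That sum was higher through pha-4 alone, the only 1 of the 4 with a positive log2 fold change (median -0.89). myo-1 was not called without Unexposed replicates 1 or 2 or DMSO replicates 1 or 2, and the part of either tissue in the muscle falls was not tested. The muscle filament count that fell was 3 without Unexposed replicate 2, DMSO replicate 1 or DMSO replicate 2, and 4 without Unexposed replicate 1. Transthyretin-related and SCP-like secreted proteins fell in 14 of 65 and rose in 5, with 7 to 12 lower and 0 to 5 higher when 1 library was left out (7 and 0 without Unexposed replicate 2, 8 lower without DMSO replicate 2, and 1 to 3 higher without Unexposed replicates 1 or 3 or DMSO replicates 1 or 2). Nuclear hormone receptors rose in 19 of 193 (9.84%) and fell in 4, and F-box, MATH and BATH genes rose in 37 of 320 (11.6%) and fell in 5, against 9.01% higher over all genes. Without Unexposed replicates 2 or 3 only 11 receptors rose, and 2 fell without those or without DMSO replicate 2. The F-box, MATH and BATH genes that rose numbered 19 without Unexposed replicate 2, 20 without DMSO replicate 1 and 24 without Unexposed replicate 3 or DMSO replicate 2. Those that fell numbered 0 without DMSO replicates 1 or 2, 1 to 3 without any 1 Unexposed library, and 27 in the fit of the 6 libraries alone.

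The same contrast at 72h called mostly other genes. At 72h 1881 genes (11.7%) were called, 917 higher (5.71%) and 964 lower (6.01%), from 6 libraries that do not enter the 24h contrast. Leaving out any 1 of those 6 lowered the calls to between 892 and 1261. Of the 1446 genes that rose at 24h, 50 were higher and 260 lower at 72h. Of the 571 that fell at 24h, 47 were lower and 23 higher at 72h. These counts should be read against the 5.71% higher and 6.01% lower at 72h over all genes tested. The 1446 genes that rose at 24h had a median log2 fold change of 1.33 at 24h and -0.40 at 72h, and the 571 that fell had -1.01 and -0.02. Across all genes tested Pearson's r between the contrasts was 0.04 and Spearman's rho -0.17, where genes are not independent replicates and the lane went with the exposure at both times. The difference between the times was tested directly by an interaction contrast, which called 3109 genes (19.4%), 1900 with a more positive contrast at 24h (11.8%) and 1209 with a more negative one (7.53%). Of the genes called at 24h, 1266 were called in this difference. The difference gave 1931 calls without DMSO replicate 1 of 24h and 2070 without Unexposed replicate 1 of 72h.

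Named genes illustrate both patterns. vit-6 was 1.16 higher at 24h and fell by 1.37 on the log2 scale at 72h, a difference of 2.53 (adjusted p = 1.1e-05). pod-2 and fasn-1 likewise fell at 72h, by 1.47 and 0.86 on the log2 scale, as did tps-1 by 1.25 and ugt-18 by 3.46. COX1 and COX3 fell at both times (log2 -0.98 and -0.99 at 72h), and their contrasts did not pass the test of a difference, whereas ND5 was near 0 at 72h (log2 0.03) with a difference of -1.21 (adjusted p = 0.00011). pgp-1 rose at both times, by log2 2.87 at 24h and 1.34 at 72h. Cytosolic ribosomal proteins, with no call at 24h by edgeR's test and 3 lower by DESeq2, rose in 70 of 79 at 72h by edgeR's test, and 69 had a more negative contrast at 24h. Major sperm proteins and sperm peptides rose in 23 of 39 at 72h, and none differed between the times by the test.

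**Figure D5:**
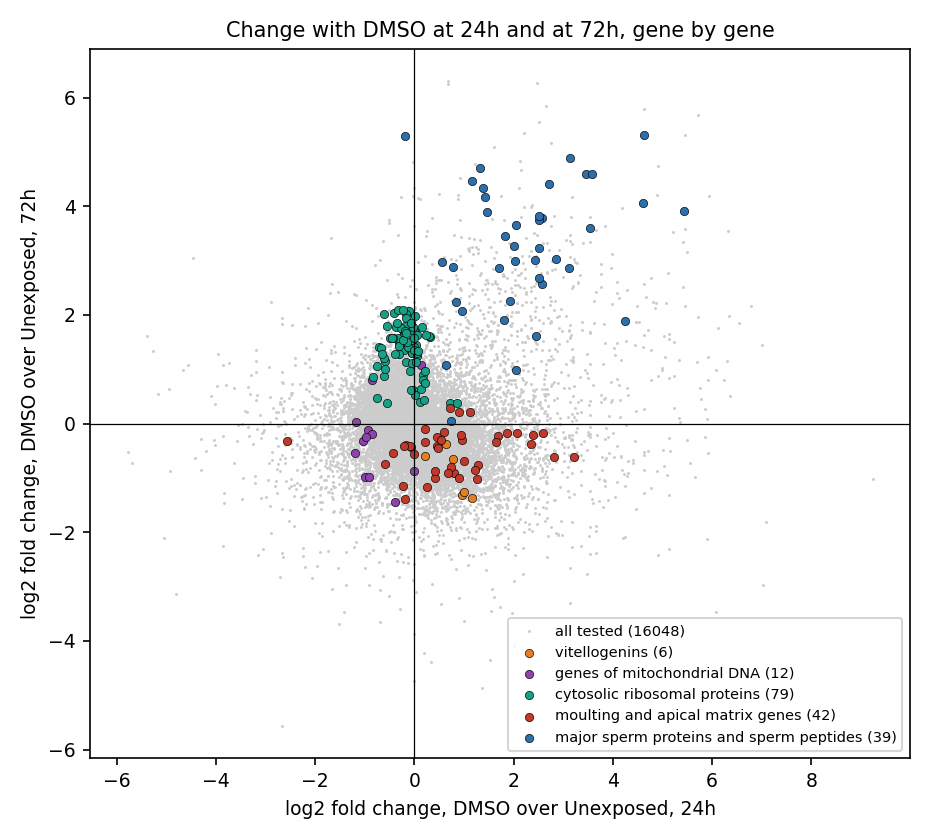
Log2 fold change of DMSO over Unexposed at 24h (horizontal axis) and at 72h (vertical axis) for the 16048 genes tested (grey), with 5 gene groups coloured. The 79 cytosolic ribosomal protein genes lie near 0 at 24h and above 0 at 72h, vitellogenins lie right of 0 and below 0, and major sperm proteins and sperm peptides lie mostly to the upper right, with group medians of 2.05 at 24h and 3.27 at 72h.

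The analogue groups contained the same solvent, and their levels at 24h are given side by side without a contrast, since they would share the Unexposed libraries. Each was sequenced in its own lane, FLT on another flow cell. COX1 was 3480 to 4190 CPM with AZT, 2890 to 3550 CPM with d4T and 4820 to 5920 CPM with FLT, all below the 6640 to 7520 CPM of Unexposed, as were the DMSO libraries. vit-6 was 14000 to 17500 CPM with AZT, 20200 to 50700 CPM with d4T and 17000 to 22000 CPM with FLT, where the AZT range overlapped that of Unexposed and not that of DMSO. pod-2 was 284 to 363 CPM with AZT, 442 to 1950 CPM with d4T and 336 to 567 CPM with FLT. ech-9 was 0.218 to 1.32 CPM with AZT, 2.83 to 49.2 CPM with d4T and 24.1 to 27.6 CPM with FLT, and fbn-1 was 7.98 to 12.2 CPM with AZT, 8.1 to 88.6 CPM with d4T and 35.7 to 96.1 CPM with FLT. For ech-9 and fbn-1 the AZT libraries sat near the Unexposed range and the d4T libraries spread widely. Over all genes tested, log2 CPM of the AZT libraries correlated at 0.9771 to 0.9834 with Unexposed and 0.9357 to 0.9818 with DMSO. The ranges were 0.8922 to 0.9776 and 0.9254 to 0.9735 for d4T, and 0.9138 to 0.9645 and 0.9386 to 0.9755 for FLT. The cause of the likeness of AZT to Unexposed was not tested. gst-35 was 5.71 to 33.4 CPM with AZT, 3.49 to 6.77 CPM with d4T and 3.61 to 7 CPM with FLT.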

How the data were processed

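Deposited values were raw read counts per gene, which the authors made with HTSeq from reads trimmed with Trimmomatic 0.32 and aligned with TopHat2 2.0.8 and Bowtie2 2.1.0 to WBcel235 with Ensembl release 75 genes, after base calling with CASAVA 1.8.2. The strand setting of the counting was not given in the sources used here. Libraries were made with a TruSeq kit. Rows that name no gene were left out of library sizes and tests and held 13.9% to 19% of reads in the 6 libraries. Gene symbols were matched for 43623 of 46726 identifiers, and coordinates come from Ensembl release 115 on the same build.

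Counts of all 30 libraries were fitted in one model of 10 groups (20 residual degrees of freedom) with edgeR 4.0.16 in R 4.3.3, using TMM scaling, a filter with a minimum count of 10 and minimum total of 15, and robust quasi-likelihood tests. Benjamini-Hochberg adjustment ran over the 16048 genes tested, and genes were called at an adjusted p under 0.01. CPM use TMM-scaled library sizes. The common biological coefficient of variation was 0.24. The study's methods give biological triplicates, and p-values measure the spread between those libraries. Intervals and floors from counts cover counting error only. No 2 libraries held identical values.

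Gene lists were described by their counts and medians without a set test. Genes followed in the text were those the study names that bear on its pathways, the largest rises and falls, and the most abundant called genes. The called members of each list with the smallest adjusted p were added, up to 3 in each direction. Members of the marker lists were also open to naming, called or not. A further rule took the genes whose DMSO contrast differed most between the times, in each direction. Genes in the text that met this rule include ech-9, clec-168, gst-35 and gst-21, which were also among the largest rises and falls. COX2, ATP6, ND1, ND2, ND3, ND4L and ND6 were named after their values were seen. The comparison, lists and alternatives were chosen with earlier results of these data known. Alternatives were RLE scaling, library totals, no filter, DESeq2 1.42.0, the compared groups alone, a replicate block, a fold threshold, another adjusted p threshold and leaving out each library. Promoter and protein sequences were not analysed here. The test was tried on simulated data first.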

Additional observations from a re-analysis of the deposited data

Results flagged for a closer look

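The contrast of DMSO with Unexposed differed between 24h and 72h for 3109 genes by the interaction contrast of edgeR's quasi-likelihood test. Of a set of 70 genes named in the report, 48 were among them, against 19.4% of all genes tested. Many of the 70 were chosen by their 24h values, which enter the difference, and some also met a rule on the difference itself. The count of 48 is therefore no test. That set left out COX2, ATP6, ND1, ND2, ND3, ND4L, ND6, hlh-1, pha-4, myo-2 and tnt-4, which the report also names. The values below are the log2 fold change at 24h minus that at 72h, for which both contrasts come from separate libraries. Among the 70, the differences of 3 or more were clec-168 10.24, ech-9 9.998, ugt-18 9.55, cyp-13A7 5.13, mtl-1 4.77, fbn-1 3.83, clec-169 3.83, pod-2 3.56, mlt-11 3.43 and icl-1 3.01. For clec-168, with no read in Unexposed at 24h, the value depends on the prior count and is no bound.

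Differences between 1.8 and 3 were seen for noah-1 2.72, nhr-25 2.60, tps-1 2.57, vit-6 2.53, cyp-13A5 2.43, lipl-5 2.41, hacd-1 2.29, vit-2 2.29, vit-5 2.27, fasn-1 2.27, mlt-10 2.07 and ctl-2 1.85. Smaller positive differences were cth-1 1.61, elt-2 1.55, pgp-1 1.53, acs-19 1.46, vit-4 1.42, cysl-3 1.39, hif-1 1.37, pdi-2 1.27, lys-2 1.27, mdt-15 1.22, sqrd-1 1.21, hsp-3 1.04, spp-4 1.01 and gpd-2 0.97.

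Negative differences, with a lower or less positive contrast at 24h than at 72h, were gst-35 -5.64, gst-21 -5.25, ugt-37 -3.60, nlp-49 -3.10, pdf-2 -2.25, flp-8 -2.20, tni-4 -1.62, tnc-2 -1.59, pat-10 -1.51, ND5 -1.21, clk-1 -1.18 and CYTB -0.72. Groups of 3 libraries were too small to look for single outlying libraries by Dixon's ratio.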

How the results depend on the processing

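Only the set of 70 genes above was followed singly through the 14 alternatives for the 24h contrast. Among these no log2 fold change of a called gene changed sign under any alternative. That of gst-4, not called, ranged over -0.09 to 0.10 with 1 library left out. In all, 87 of the gene values fell short of the threshold that the reported value passed. Scaling by library totals gave 595 higher and 1670 lower genes at 72h and moved the median of all genes there to -0.27, against -0.08 (26.3% of calls higher, against 48.8%). It gave 73.7% of calls higher in the difference between times, against 61.1%. DESeq2 called 3071 genes at 24h, 1057 of them lower, and 1884 lower in the difference. With the compared groups alone there were 4241 calls at 24h (2264 lower), 5973 at 72h (3092 higher, 2881 lower) and 6367 in the difference (3114 higher, 3253 lower). A test for a change beyond 1.5-fold called 427 genes at 24h (351 higher, 76 lower), 304 at 72h (176 higher, 128 lower) and 1227 in the difference (903 higher, 324 lower). An adjusted p threshold of 0.05 called 4738 at 24h (2691 higher, 2047 lower), 3392 at 72h (1558 higher, 1834 lower) and 5608 in the difference (3169 higher, 2439 lower). RLE scaling (1997 calls at 24h) and no filter on low counts (1649) stayed within 1.5 times of 2017, and 1981 and 1612 of their calls were also in the 2017. The causes of these differences were not tested.

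With 1 library left out, calls were 944 to 1910 at 24h (739 to 1464 higher, 177 to 446 lower), 892 to 1261 at 72h (439 to 650 higher, 417 to 647 lower) and 1931 to 3022 in the difference (1396 to 1928 higher, 535 to 1094 lower). Replicate numbers did not pair the samples, as deviations of same-numbered DMSO and Unexposed libraries at 24h correlated at 0.0368, -0.00173 and -2.31e-05. A fit with the replicate block called 1857 genes at 24h (1354 higher, 503 lower), 1823 at 72h (913 higher, 910 lower) and 2956 in the difference (1805 higher, 1151 lower), and 1832 of the 2017 calls at 24h were shared.

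The share of genes called higher at 24h was 2.41% under 1 CPM, 9.59% at 1 to 10 CPM, 14.5% at 10 to 100 CPM, 6.66% at 100 to 1000 CPM and 11.4% above. The part of depth in this was not tested.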
